A study of Mus musculus with 23 samples.

Results

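The 10 genes described here encode subunits of the transcription factor AP-1 (Fos, Fosb, Jun, Junb and Jund), its partner ATF3, the immediate early products EGR1 and IER2, and the feedback proteins DUSP1 and ZFP36. They were listed by name and found by symbol among the 54347 genes of the deposited count table. All 10 of the 10 listed genes passed the filter on low counts that 17190 genes passed over the 23 libraries. The list was selected on earlier results of the same counts across the 4 groups of libraries, so levels and differences of the 10 genes are given as a description, with standard errors and without p-values.

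The libraries came from the labial cervical loop, the epithelial fold at the growing end of the mouse lower incisor, at postnatal day 2. All mice carried the Sox2-GFP reporter, in which the endogenous Sox2 promoter drives green fluorescent protein, so the sorted populations differ in reporter signal and not in genotype. Tissue was held in ice-cold medium, digested with collagenase and neutral protease, and sorted into Sox2-positive cells, called dental epithelial stem cells in the labels, and Sox2-negative cells. Smart-seq2 libraries, which start from full-length cDNA of small inputs, were made in batch A (6 Sox2-negative, 6 Sox2-positive) and batch B (4 Sox2-negative, 7 Sox2-positive), on separate days and from different mice, and no strain or sex is named for any group. Day, mice and batch cannot be told apart. Whether libraries of a batch share mice or sorted cells is not stated. Here n is a number of libraries, and their spread may be technical.

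AP-1 is a dimer of a FOS-family and a JUN-family protein, or of JUN-family proteins alone, that binds the DNA sequence TGACTCA and, with ATF and CREB family partners, TGACGTCA. Genes of this class are called immediate early because growth factors, cytokines and cell stress raise their transcription within minutes through MAP kinases that act on factors already present, and their unstable mRNAs are lost soon after the signal ends. In intact tissue they report signalling, and enzymatic dissociation and sorting of cells are known to raise them too.

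The stretches just before the transcription start are shown for Fos, Jun, Junb and Dusp1. These genes stood far apart between the batches in Sox2-positive cells, Fos the most, but they were not picked by rank. Zfp36, with a log2 difference of -3.38, stood further apart than Jun (-2.58) and Dusp1 (-2.68) and is not shown. Each line gives the 250 bases before the RefSeq start in GRCm38.p6 (mm10), 5′ to 3′ on the strand of the gene, and capitals mark TGACG, TGACGTCA, TGACATCA and TATAAA. TGACGTCA is the full CRE, the site bound by CREB and ATF proteins, and TGACG is its core and lies within it. TGACATCA is the variant AP-1 site known from the Jun promoter, and TATAAA is a TATA box.
Fos, chr12:85473640-85473889, plus strand: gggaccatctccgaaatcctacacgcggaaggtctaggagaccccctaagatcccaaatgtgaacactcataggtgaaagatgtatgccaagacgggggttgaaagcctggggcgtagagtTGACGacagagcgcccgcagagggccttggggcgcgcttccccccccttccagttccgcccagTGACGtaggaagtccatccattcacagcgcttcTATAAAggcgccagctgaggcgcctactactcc
Jun, chr4:95052223-95052472, minus strand: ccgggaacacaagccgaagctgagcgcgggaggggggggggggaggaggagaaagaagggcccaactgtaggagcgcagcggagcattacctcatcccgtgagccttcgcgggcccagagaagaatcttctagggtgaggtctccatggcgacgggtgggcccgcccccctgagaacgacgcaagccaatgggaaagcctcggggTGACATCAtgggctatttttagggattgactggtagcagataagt
Junb, chr8:84978749-84978998, minus strand: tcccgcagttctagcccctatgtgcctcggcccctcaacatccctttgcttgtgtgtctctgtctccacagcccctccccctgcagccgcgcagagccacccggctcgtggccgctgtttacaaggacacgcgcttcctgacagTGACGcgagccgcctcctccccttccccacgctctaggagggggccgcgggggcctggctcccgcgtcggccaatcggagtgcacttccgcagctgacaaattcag
Dusp1, chr17:26508473-26508722, minus strand: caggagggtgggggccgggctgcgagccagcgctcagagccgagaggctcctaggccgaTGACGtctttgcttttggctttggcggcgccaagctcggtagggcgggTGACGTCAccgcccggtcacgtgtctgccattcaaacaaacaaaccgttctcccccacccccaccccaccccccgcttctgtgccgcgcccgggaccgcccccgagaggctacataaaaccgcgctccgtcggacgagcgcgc

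In the Fos stretch, TGACG begins 129 and 66 bases before the start and TATAAA 33 bases before it. The Jun stretch holds TGACATCA from 45 bases before the start, the Junb stretch holds TGACG from 106 bases before it, and the Dusp1 stretch holds TGACG from 191 bases and TGACGTCA from 143 bases before it. Motifs were searched on both strands in 8 of the 10 genes, those with a RefSeq stretch in the table used. TGACG was found in 5 of the 8 (Fos, Fosb, Junb, Atf3 and Dusp1), against 17.8% of the 32851 stretches of the same length before all RefSeq starts. TGACGTCA was found in 1 of the 8 (1.55% of all stretches), TGACATCA in 1 (2.93%), TATAAA in 1 (12.4%) and TGACTCA in 0 (4.46%). The CArG box, the site of serum response factor, was found in 1, at Zfp36 (1.47%). These are letter matches in short windows and no binding was measured. Bases further than 250 before the start were not searched, so a motif not found here may lie beyond the window. The RefSeq and GENCODE starts coincide for Fos and Jun and lie 30 bases apart for Junb, but the GENCODE gene begins 53656 bases upstream for Dusp1. For the searched genes not shown, the starts lie 6 bases apart for Fosb, 1025 for Zfp36, 1210 for Jund and 34706 for Atf3. The matches at Dusp1, Zfp36 and Atf3 therefore hold for the RefSeq start only.

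Total counts per library ran from 2305778 to 9541443 with a median of 4831091. Expression is given as CPM, counts at a common library size after TMM scaling. Epithelial markers (8 genes) summed to between 4843 and 7755 CPM in Sox2-positive libraries and 208 to 537 CPM in Sox2-negative libraries, and mesenchymal markers (8 genes) to between 694 and 1929 CPM and 11035 to 14169 CPM. Glial markers (5 genes) in Sox2-positive libraries summed to 907 to 1158 CPM in batch A and 41.0 to 61.6 CPM in batch B, so the Sox2-positive libraries were not of epithelial transcripts alone. In batch B the libraries numbered 1 and 2 of both populations held more genes with a count (20809 to 23720) than the higher-numbered ones (17765 to 20520). Their total counts also differed, 7704481 to 9541443 against 6397409 to 6609417 in Sox2-negative libraries. In Sox2-positive libraries the totals overlapped, at 5978076 to 7111502 against 2305778 to 6464634. The part of depth in the number of genes was not tested.

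Fos (chr12:85473890-85477273) encodes the inducible FOS subunit, which cannot bind DNA without a JUN partner. In batch A its level ran from 170.1 to 271.9 CPM (median 220.2) in Sox2-negative libraries and from 551 to 771 CPM (median 664) in Sox2-positive libraries. In batch B the 4 Sox2-negative libraries held 17.6, 19.7, 14.5 and 37.6 CPM, and the 7 Sox2-positive libraries ran from 2.18 to 8.64 CPM (median 6.57). The populations did not overlap in either batch, and their order was opposite: Sox2-positive libraries were above all Sox2-negative ones in batch A and below all of them in batch B. The log2 difference, Sox2-positive over Sox2-negative, was 1.61 (SE 0.13) in batch A and -1.96 (SE 0.39) in batch B. Every batch B library was below every batch A library of its population. Batch A Sox2-positive libraries averaged 664 ± 70.5 CPM (SD, n = 6) and batch B ones 5.57 ± 2.48 CPM (n = 7), and the fitted edgeR difference between them was 124-fold. Among the 17190 genes this log2 difference of -6.95 (SE 0.26) was the 11th lowest. In Sox2-negative cells the batch difference was -3.30 (SE 0.27), from 219 ± 41.7 CPM (n = 6) to 22.3 ± 10.4 CPM (n = 4).

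Fosb (chr7:19302696-19310051) encodes a close relative of FOS. Batch A Sox2-negative libraries ran from 1.05 to 60.9 CPM (median 18.9) and Sox2-positive libraries from 4.51 to 13.6 CPM (median 9.41). The Sox2-negative values span the Sox2-positive ones on both sides, and the log2 difference was -1.48 (SE 0.67). In batch B, 5 of 7 Sox2-positive libraries had no count and the others had 1 count each, and of the Sox2-negative libraries 2 had none, 1 had 1 count and 1 had 13 counts. All 7 batch B Sox2-positive libraries lay below the 6 batch A ones, and no fold is given because the batch B level rests on single counts. The Fosb difference between batches in Sox2-negative cells, -5.50 (SE 1.09), moved to -8.35 without the 1 library that held 13 counts.

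Jun (chr4:95049034-95052222) encodes the JUN subunit, the main activating partner of FOS. Batch A Sox2-negative libraries held 20.3 to 51.7 CPM (median 34.2), and Sox2-positive libraries 145.7 to 228 CPM (median 173). The 4 batch B Sox2-negative libraries held 15.5, 17.6, 23.8 and 27.7 CPM, and the Sox2-positive libraries 12.4 to 42.8 CPM (median 35.5). Jun therefore separated the populations in batch A without overlap, by a log2 difference of 2.38 (SE 0.21), while the ranges overlapped in batch B at 0.60 (SE 0.32). Among batch B Sox2-positive libraries, those numbered 1 and 2 held 17.5 and 12.4 CPM and the other 5 held 30.1 to 42.8 CPM. Between batches the difference was -2.58 (SE 0.25) in Sox2-positive cells, with no overlap, and -0.73 (SE 0.29) in Sox2-negative cells, where the ranges overlapped.

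Junb (chr8:84974484-84978718) encodes JUNB, a weaker activator that can also restrain JUN. Its level ran from 72.4 to 143.5 CPM (median 118) in batch A Sox2-negative libraries and from 143.0 to 250 CPM (median 181) in Sox2-positive libraries. In batch B it was 31.0, 24.0, 30.3 and 30.9 CPM in Sox2-negative libraries and 8.25 to 25.7 CPM (median 12.2) in Sox2-positive libraries. The lowest batch A Sox2-positive library was just under the highest Sox2-negative one, and in batch B only 1 of 7 Sox2-positive libraries exceeded the lowest Sox2-negative one. The population difference was 0.74 (SE 0.18) in batch A and -0.92 (SE 0.30) in batch B. Both populations separated by batch without overlap, by -3.66 (SE 0.23) in Sox2-positive and -1.92 (SE 0.26) in Sox2-negative cells. Junb shares its locus with Prdx2 on the opposite strand, which held 627 to 1075 CPM on group average. Overlap was judged on whole gene spans and not on exons. No strand setting is stated for the counts, so reads from any exon bases that both genes share cannot be told apart.

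Jund (chr8:70698949-70700616) encodes JUND, the subunit known for steady expression in resting cells, and its levels differed least between the batches. Batch A libraries ran from 85.7 to 129 CPM (median 114) when Sox2-negative and from 110.3 to 186 CPM (median 141) when Sox2-positive. Batch B Sox2-negative libraries held 163, 152, 101.4 and 123 CPM, and Sox2-positive libraries 30.7 to 123 CPM (median 100.1). The ranges overlapped in every comparison. The batch difference was 0.28 (SE 0.28) in Sox2-negative cells, within its error, and -0.73 (SE 0.24) in Sox2-positive cells. The 2 batch B Sox2-positive libraries numbered 1 and 2 held 36.0 and 30.7 CPM against 93.8 to 123 CPM in the other 5. Without the libraries numbered 1 and 2 of both populations, the Jund population difference in batch B moved from -0.60 (SE 0.31) to -0.06.

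**Figure D1:**
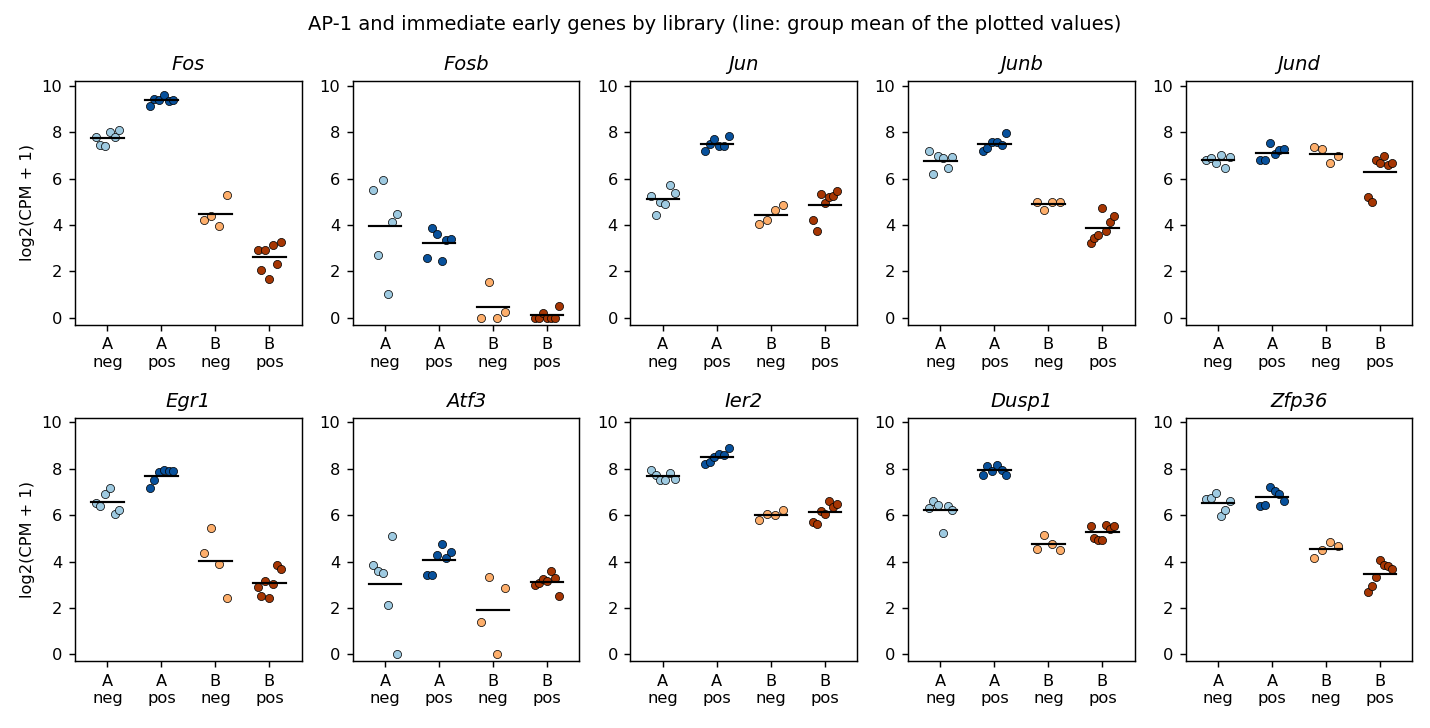
Levels of the 10 genes as log2(CPM + 1) on the vertical axis, 1 panel a gene, with each point a library and each line the group mean of the plotted values; A and B are the batches, neg and pos the Sox2-negative and Sox2-positive cells. Fos, Junb, Egr1, Ier2, Dusp1 and Zfp36 show no overlap between the batches in either population, while Jund overlaps in both.

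Because a dimer depends on which subunits are present, the make-up of the 5 FOS and JUN transcripts was computed per library. It was taken from CPM per kb of exon, which allows genes of different length to be compared. FOS relatives outside the 10 genes, such as Fosl2, were left out. The values are therefore shares among the 5 transcripts and not of all AP-1 subunits, and protein was not measured. In batch A, Fos made up 41.7% ± 4.38 (SD, n = 6) of the summed level in Sox2-negative libraries and 56.0% ± 4.03 in Sox2-positive libraries (n = 6). In batch B the share of Fos was 8.65% ± 3.79 (n = 4) and 3.94% ± 2.29 (n = 7). Jund took the larger part there, with 73.3% ± 6.66 in Sox2-negative and 71.9% ± 5.30 in Sox2-positive libraries, against 30.1% ± 4.66 and 16.6% ± 2.51 in batch A. The batches were therefore further apart in make-up than the populations: the Jund share lay between 13.7% and 38.7% in every batch A library and between 64.5% and 79.1% in every batch B library. The share of Jun was higher in Sox2-positive than in Sox2-negative cells of both batches, 11.3% ± 1.13 against 4.96% ± 1.63 in batch A and 14.1% ± 1.82 against 6.24% ± 2.24 in batch B. The Jun ranges did not overlap in either batch. Junb gave 21.5% ± 3.74, 15.7% ± 1.90, 11.8% ± 2.52 and 10.03% ± 3.67 in batch A Sox2-negative, batch A Sox2-positive, batch B Sox2-negative and batch B Sox2-positive libraries.

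**Figure D2:**
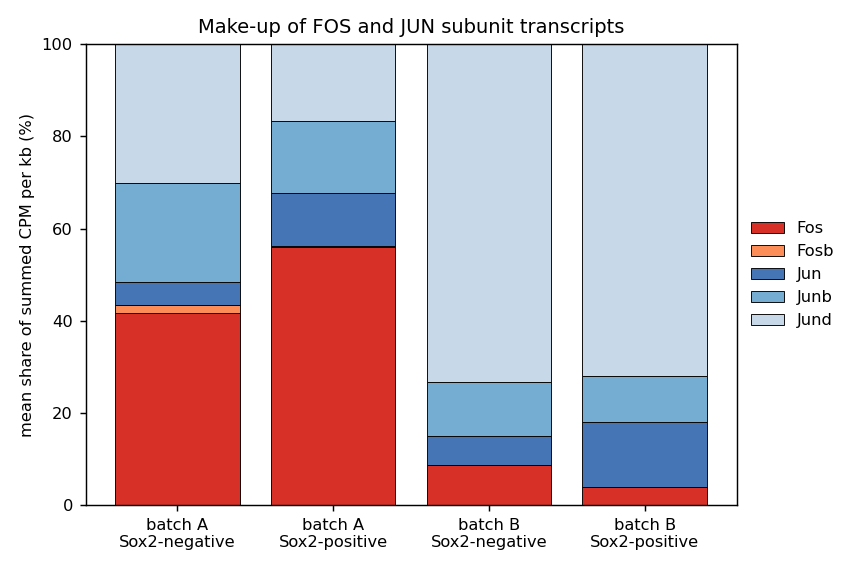
Mean share (percent, vertical axis) that each of Fos, Fosb, Jun, Junb and Jund had of their summed CPM per kb, for the 4 groups on the horizontal axis. Fos takes 41.7% and 56.0% of the batch A bars and 8.65% and 3.94% of the batch B bars, where Jund takes 73.3% and 71.9%.

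Atf3 (chr1:191170296-191218039) encodes a stress-induced member of the ATF family that pairs with JUN proteins and often represses. It ran from 0 to 33.8 CPM (median 10.8) in batch A Sox2-negative libraries and from 9.68 to 26.1 CPM (median 17.5) in Sox2-positive libraries. The batch B Sox2-negative libraries held 1.66, 9.15, 0 and 6.29 CPM, and the Sox2-positive libraries 4.75 to 11.1 CPM (median 8.0). Atf3 overlapped in every comparison, with population differences of 0.48 (SE 0.72) in batch A and 0.97 (SE 0.69) in batch B and batch differences of -1.50 (SE 0.84) and -1.07 (SE 0.68) in Sox2-negative and Sox2-positive cells. Its Sox2-negative libraries scattered widely (SD of log2 CPM 2.24 in batch A, 2.07 in batch B), and 2 of these 10 libraries had no count.

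Egr1, a zinc finger factor that serum and growth factors induce with Fos, ran from 66.2 to 144.9 CPM (median 87.6) in batch A Sox2-negative libraries and from 142.6 to 244 CPM (median 234) in Sox2-positive libraries. The 4 batch B Sox2-negative libraries held 19.7, 42.2, 13.9 and 4.42 CPM, a wide span, and the Sox2-positive libraries 4.36 to 13.6 CPM (median 7.18). Only 1 batch A Sox2-positive library was under the highest Sox2-negative one, while in batch B 1 of the 4 Sox2-negative libraries fell inside the Sox2-positive range and the other 3 lay above it. The population difference was 1.14 (SE 0.20) in batch A. In batch B it was -1.26 (SE 0.47), and 0.00 without the libraries numbered 1 and 2. Between batches it was -4.74 (SE 0.36) in Sox2-positive cells, or 26.8-fold, and -2.27 (SE 0.39) in Sox2-negative cells, with no overlap in either. The value in Sox2-negative cells was -3.39 without the libraries numbered 1 and 2.

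Ier2 (chr8:84661331-84662852), an immediate early gene induced by growth factors, varied little within groups, with an SD of log2 CPM between 0.18 and 0.38. Batch A libraries ran from 182 to 249 CPM (median 199.6) when Sox2-negative and from 290.1 to 475 CPM (median 377) when Sox2-positive. Batch B Sox2-negative libraries held 54.2, 65.6, 63.6 and 72.9 CPM, and Sox2-positive libraries 48.6 to 97.9 CPM (median 71.5). In batch A all Sox2-positive libraries were above the Sox2-negative ones, with a difference of 0.86 (SE 0.13), and in batch B the ranges overlapped at 0.23 (SE 0.19). Both batch differences were free of overlap, at -2.38 (SE 0.15) in Sox2-positive and -1.69 (SE 0.18) in Sox2-negative cells.

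Dusp1 (chr17:26505590-26562128) encodes a phosphatase that inactivates MAP kinases and so ends the signal that induced it. It held 36.9 to 97.0 CPM (median 81.0) in batch A Sox2-negative libraries and 212 to 282 CPM (median 243) in Sox2-positive libraries. In batch B the Sox2-negative libraries held 22, 34.5, 26.3 and 21.9 CPM and the Sox2-positive libraries 29.3 to 46.3 CPM (median 40.8). Dusp1 was the 1 gene besides Jun, Atf3 and Ier2 whose Sox2-positive mean was the higher in both batches, by 1.69 (SE 0.19) in batch A, with no overlap, and 0.62 (SE 0.21) in batch B, with overlap. The batch difference was -2.68 (SE 0.19) in Sox2-positive and -1.54 (SE 0.22) in Sox2-negative cells, both without overlap. Ergic1 overlaps the annotated span of Dusp1 on the opposite strand and held 42.1 to 155 CPM on group average.

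Zfp36 (chr7:28376784-28380253) encodes tristetraprolin, which binds AU-rich elements and speeds the decay of immediate early and cytokine mRNAs. Its level was 60.9 to 124 CPM (median 99.8) in batch A Sox2-negative libraries and 83.5 to 146 CPM (median 108) in Sox2-positive libraries. In batch B it was 16.9, 21.8, 27.7 and 24.5 CPM in Sox2-negative libraries and 5.39 to 16.0 CPM (median 11.7) in Sox2-positive libraries. The populations overlapped in batch A at 0.24 (SE 0.20) and did not overlap in batch B, where Sox2-positive libraries were the lower at -1.02 (SE 0.31). The batch difference was -3.38 (SE 0.24) in Sox2-positive and -2.05 (SE 0.28) in Sox2-negative cells, without overlap.

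**Figure D3:**
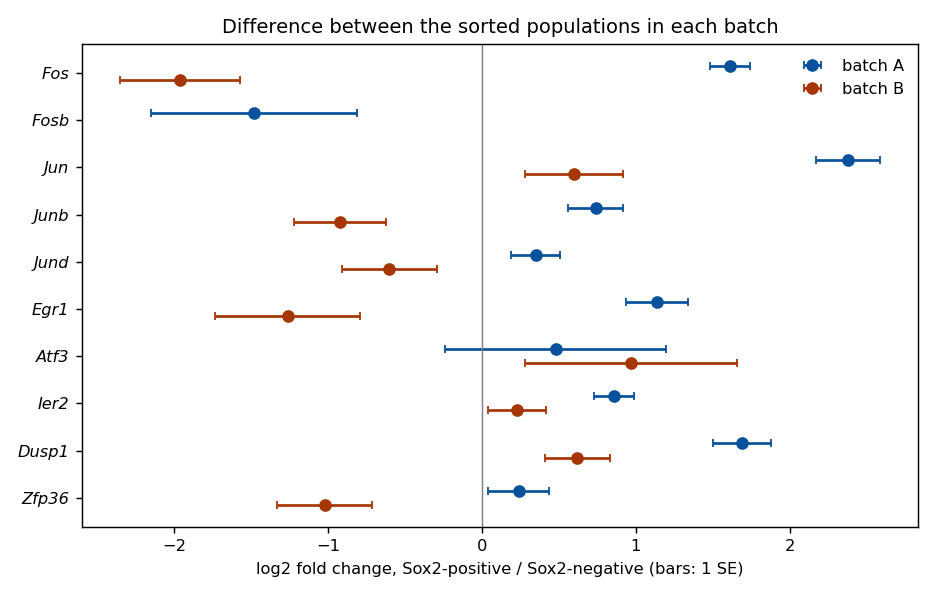
Log2 fold change of Sox2-positive over Sox2-negative cells (horizontal axis) for each of the 10 genes, in batch A (blue) and batch B (red), with bars of 1 SE. Fos, Junb, Jund, Egr1 and Zfp36 lie right of 0 in batch A and left of 0 in batch B; Fosb has no batch B point because its counts there were under the filter.

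Counted together, the 10 genes took 0.0982% ± 0.00850 (SD, n = 6) of all counts in Sox2-negative libraries of batch A and 0.227% ± 0.0267 in batch A Sox2-positive libraries (n = 6). The shares in batch B were 0.0309% ± 0.00242 (n = 4) and 0.0273% ± 0.00768 (n = 7). Per kb the order of the genes also differed. In batch A Sox2-negative libraries Ier2 (135.7 ± 18.2 CPM per kb) was above Fos (93.0 ± 17.7) in all 6 libraries without overlap, and Fos above Jund (66.4 ± 9.28) in all 6 with overlapping ranges. In batch A Sox2-positive libraries Fos (282 ± 30.0) and Ier2 (244 ± 42.7) overlapped, and both exceeded Jund (84.2 ± 17.4). In batch B Jund came first, at 80.8 ± 16.7 in Sox2-negative libraries, above Ier2 (42.1 ± 5.06) in all 4, and at 50.9 ± 21.8 in Sox2-positive libraries, where it overlapped Ier2 (47.2 ± 12). Fos ranked 4 of the 10 in batch B Sox2-negative libraries (9.49 ± 4.41) and 8 in Sox2-positive ones (2.37 ± 1.05). Fosb had the lowest mean in all 4 groups. In both Sox2-negative groups its range overlapped that of Atf3, which was above it in 3 of 6 libraries in batch A and 3 of 4 in batch B.

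The calls of the fits across all genes (edgeR quasi-likelihood test, Benjamini-Hochberg adjusted p under 0.05) are counted here beside the share of all genes called, and nothing is read from them since the list was made with them known. With both batches in the fit, 3 of the 10 genes were called higher in Sox2-positive cells (24.9% of all genes tested were) and 1 lower (32.5%). The latter count was 0 without the batch B libraries numbered 1 and 2, with the replicate block, and without either the batch A Sox2-negative library numbered 3 or the batch B Sox2-negative library numbered 2. Batch A alone gave 6 higher (19.3%) and 0 lower (24.2%), and 1 lower without its Sox2-negative library numbered 2 or 4. Among the 9 that could be fitted in batch B, 1 was called higher (27.1%) and 4 lower (27.6%); without the libraries numbered 1 and 2 these were 0 and 2. The first of these was also 0 with the replicate block and without the Sox2-negative library numbered 1 or 4, and was 2 without the Sox2-positive library numbered 2. Between the batches 0 were called higher and 7 lower in Sox2-negative cells (5.85% and 5.35% of all genes), and 0 higher and 9 lower in Sox2-positive cells (4.85% and 5.54%). Scaling by total count in place of TMM changed the split of all calls between batches from 1005 higher and 919 lower to 661 and 1388 in Sox2-negative cells, and from 833 and 952 to 666 and 1214 in Sox2-positive cells. Under each scaling Jund alone among the 10 kept a positive batch difference in Sox2-negative cells, and the other 9 were negative.

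By ranges, 4 of the 10 genes stood higher in Sox2-positive cells of batch A without overlap (10.9% of the 17190 genes did) and 0 lower (14.3%). In batch B 0 stood higher (16.2%) and 2 lower (20.3%). Between batches 0 stood higher (4.56%) and 6 lower (4.31%) without overlap in Sox2-negative cells, and 0 higher (3.90%) and 8 lower (4.66%) in Sox2-positive cells. The median log2 difference of the 10 genes was 0.80 in batch A, against -0.04 over all genes tested. It was -0.60 over 9 genes in batch B, against 0.01. The medians between batches were -1.81 in Sox2-negative and -3.03 in Sox2-positive cells, against 0 in both. The batch difference in Sox2-positive minus that in Sox2-negative cells was negative for 9 of the 10 genes, with -3.66 (SE 0.33) for Fos, -2.48 (SE 0.49) for Egr1, -1.85 (SE 0.37) for Jun and -1.73 (SE 0.33) for Junb. By this measure 6 were called lower (4.22% of all genes) and 0 higher (2.82%); without the batch B libraries numbered 1 and 2, 4 were lower. Without those libraries the Egr1 value was -1.18 and that of Jund -0.44 in place of -1.02, and that of Fosb, -1.21 (SE 1.24), was 1.65 without the library that held 13 counts.

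**Figure D4:**
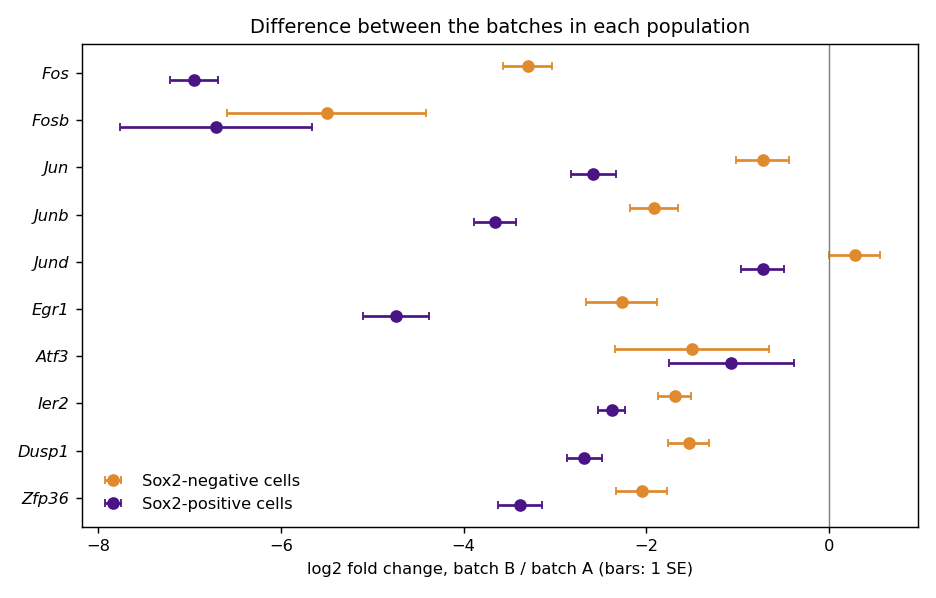
Log2 fold change of batch B over batch A (horizontal axis) for each of the 10 genes in Sox2-negative (orange) and Sox2-positive (purple) cells, with bars of 1 SE. Jund in Sox2-negative cells is the single point right of 0, at 0.28, and Fos in Sox2-positive cells lies farthest left, at -6.95; the Sox2-positive Fosb point rests on 2 counts in batch B.

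Other cell types moved with the batches too. In Sox2-negative libraries the leukocyte markers (8 genes) summed to 2556 to 2972 CPM in batch A and 564 to 682 CPM in batch B, the endothelial markers (6 genes) to 903 to 1190 and 238 to 381 CPM, and the erythroid markers (6 genes) to 983 to 1175 and 53603 to 62032 CPM. In Sox2-positive libraries leukocyte markers summed to at most 14.1 CPM, with Cd52 at 0 in both batches, and endothelial markers to 17.3 to 35.4 CPM. Pericyte and smooth muscle markers (5 genes) summed to 118 to 165 CPM in batch A and 468 to 501 CPM in batch B in Sox2-positive libraries, with 3 of the 4 tested called higher in batch B, and to 472 to 818 and 383 to 444 CPM in Sox2-negative ones. The glial markers differed there as given above, with all 5 called lower in batch B, and mesenchymal markers summed to 1349 to 1929 and 694 to 816 CPM. Mitochondrially encoded genes took 3.56% ± 0.405 and 3.88% ± 0.278 of the counts in Sox2-positive libraries of batches A and B, and 3.68% ± 0.265 and 2.07% ± 0.384 in Sox2-negative ones. The part of glial, erythroid, pericyte and other markers in the results was not tested. In bulk libraries, fewer cells with a transcript and less of it per cell cannot be told apart.

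The neighbouring pathway was followed in 6 lists of 96 genes, of which 93 were tested. Between batches in Sox2-positive cells 3 were called higher and 19 lower (edgeR adjusted p under 0.05), or 3.23% and 20.4% of the lists against 4.85% and 5.54% of all genes. In Sox2-negative cells 5 were called higher and 14 lower, or 5.38% and 15.1% against 5.85% and 5.35%. Without the batch B libraries numbered 1 and 2, 16 genes in place of 22 were called in Sox2-positive cells and 7 in place of 19 in Sox2-negative cells.

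Among 16 tested genes of other immediate early transcription factors, 7 fell from batch A to batch B and 0 rose in Sox2-positive cells, and 4 fell and 1 rose in Sox2-negative cells (Egr4, Nr4a1, Klf6 and Klf10, and Klf4; names from the counts here and in the lists that follow were taken after their values were seen where the naming rule does not give them). Without the batch B libraries numbered 1 and 2, 2 in place of 4 fell and 0 in place of 1 rose in Sox2-negative cells, Klf6 being at -0.76 in place of -0.72. At an unadjusted p under 0.05 and by DESeq2, 0 rose and 8 fell in Sox2-positive cells. Klf2, a zinc finger factor known from endothelium and quiescent leukocytes, was at 0 in all 7 batch B Sox2-positive libraries against 3.40 ± 1.48 CPM in batch A, at least 4.72-fold lower. Klf4, a barrier and stem cell factor, fell in Sox2-positive cells from 23.9 ± 4.71 to 12.4 ± 3.46 CPM (log2 -0.94, SE 0.21, edgeR adjusted p 0.00305) and rose in Sox2-negative cells from 77.0 ± 21.2 to 141 ± 19.9 CPM (0.87, SE 0.23, adjusted p 0.012). The second of these was 0.72 and not called without the batch B libraries numbered 1 and 2. Ier5, a regulator of heat shock factor, fell in Sox2-positive cells by 0.65 (SE 0.18, edgeR adjusted p 0.0165), and was at -0.52 and not called without those libraries. Myc, the growth regulator, was at 82.1 ± 17.3 and 79.8 ± 8.64 CPM in Sox2-positive cells of batches A and B (log2 -0.04, SE 0.18, adjusted p 0.952). It was higher in Sox2-positive than in Sox2-negative cells of both batches (both batches, 1.96, SE 0.15, edgeR adjusted p 2.89e-11). Nr4a1, an orphan nuclear receptor chosen after its values were seen, fell from 72.4 ± 20.4 to 8.34 ± 2.56 CPM in Sox2-positive cells (log2 -3.12, SE 0.22, edgeR adjusted p 6.19e-11). The related Nr4a2 was at 5.70 ± 3.42 and 2.14 ± 1.64 CPM there (-1.40, SE 0.49, adjusted p 0.069), and Klf6 at 72.3 ± 14.4 and 56.2 ± 12.4 CPM (-0.37, SE 0.19, adjusted p 0.258).

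Of 19 immediate early effectors, 6 fell and 0 rose from batch A to batch B in each population. At an unadjusted p under 0.05, 2 rose and 8 fell in Sox2-positive cells and 0 rose and 8 fell in Sox2-negative cells, and DESeq2 called 0 higher and 6 lower, and 0 higher and 7 lower. Ccn1 (listed as Cyr61 in older annotations), a matricellular protein induced by YAP and serum, fell in Sox2-positive cells from 95.1 ± 20.5 to 4.13 ± 2.81 CPM (log2 -4.55, SE 0.35, edgeR adjusted p 3.35e-10). Arc, a synaptic immediate early gene, fell in Sox2-positive cells from 132 ± 30.3 to 15.5 ± 5.96 CPM (-3.11, SE 0.65, edgeR adjusted p 0.00202). Arc was at 0 in all 4 batch B Sox2-negative libraries, so it was at least 34.3-fold higher in batch B Sox2-positive cells. In batch A Sox2-negative libraries it ran from 0 to 24.1 CPM, with a mean of 4.69 CPM. That mean rests mostly on the highest library, so no fold between the batches is given for Sox2-negative cells. Btg2, an antiproliferative gene, fell in both populations, by 1.30 (SE 0.19, edgeR adjusted p 2.84e-05) in Sox2-positive and by 1.66 (SE 0.24, adjusted p 2.92e-05) in Sox2-negative cells. Sat1, the polyamine acetyltransferase, fell in Sox2-negative cells from 465 ± 98.5 to 158 ± 31.9 CPM (-1.56, SE 0.15, edgeR adjusted p 3.4e-08) and was at 590.0 ± 68.7 and 646 ± 52.2 CPM in Sox2-positive ones (0.13, SE 0.12, adjusted p 0.598). Btg1, Sgk1, a serum and glucocorticoid induced kinase, and Gem, a small GTPase, did not pass the test between batches in either population.

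Of 16 feedback and RNA decay genes, 4 fell (Dusp6, Socs3, Spry2 and Spry4) and 0 rose in Sox2-positive cells, and 0 passed the test in Sox2-negative cells. In the latter an unadjusted p under 0.05 gave 1 higher and 4 lower, and DESeq2 called 0 higher and 3 lower. Socs3, which inhibits cytokine receptors, fell in Sox2-positive cells from 76.3 ± 14.9 to 10.6 ± 3.99 CPM (log2 -2.87, SE 0.30, edgeR adjusted p 7.11e-08). Spry4 and Dusp6, feedback inhibitors of the FGF and ERK pathway, fell there by 1.89 (SE 0.32, edgeR adjusted p 0.000178) and by 1.16 (SE 0.24, adjusted p 0.00163). The populations differed in opposite directions for these last genes: over both batches Dusp6 was higher in Sox2-positive cells (2.13, SE 0.21, adjusted p 1.63e-09) and Spry4 lower (-2.82, SE 0.33, adjusted p 5.28e-08). Dusp14, a further phosphatase of MAP kinases, was higher in Sox2-positive cells (3.86, SE 0.56, adjusted p 1.61e-06), and Nfkbiz, an inducible regulator of NF-kB, was lower (-2.96, SE 0.41, adjusted p 7.51e-07). Zfp36l1, the relative of Zfp36, lay between 185 and 208 CPM on average in all 4 groups and did not pass the test in any comparison.

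Of 18 kinases and factors upstream of the 10 genes, 2 rose from batch A to batch B in Sox2-positive cells (Elk4 and Creb1) and 0 fell, by edgeR and by DESeq2, and an unadjusted p under 0.05 gave 4 and 0. The count that rose was 0 with total-count scaling and 0 without the batch B libraries numbered 1 and 2. In Sox2-negative cells 3 rose (Mapk14, Map2k1 and Map2k7) and 2 fell (Elk3 and Mrtfb). Without those libraries all 5 of these calls ended, with log2 differences of 0.83 in place of 0.77 for Map2k1, 0.97 in place of 1.57 for Map2k7, -0.97 in place of -0.69 for Elk3 and -0.73 in place of -0.91 for Mrtfb. Map2k2 (MEK2) averaged 119 ± 15.7 and 122 ± 33.1 CPM in Sox2-positive cells of batches A and B (log2 0.04, SE 0.16, edgeR adjusted p 0.935). Over both batches Map2k1 (MEK1) and Rps6ka1 were higher in Sox2-positive cells, by 0.95 (SE 0.14, adjusted p 3.19e-06) and 1.18 (SE 0.22, adjusted p 4.3e-05). Rps6ka3 (log2 -2.46, SE 0.32, adjusted p 3.22e-07) and Map2k7, which activates JNK (-1.75, SE 0.21, adjusted p 8.14e-08), were lower.

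Of 15 heat shock and metallothionein genes, 2 fell from batch A to batch B in Sox2-positive cells (Hspa1a and Hspd1) and 0 rose, by edgeR and by DESeq2, and an unadjusted p under 0.05 gave 1 higher and 4 lower. The count that fell was 4 with total-count scaling and 1 without the batch B libraries numbered 1 and 2. In Sox2-negative cells 2 fell (Hspa1b and Mt1) and 1 rose (Bag3), whereas DESeq2 and total-count scaling each called 5 lower. Without those libraries 1 fell and 0 rose there, Hspa1b being at -6.44 in place of -5.33 and no longer called. Hspa1a and Hspa1b are near-identical copies, so the split of reads between them is uncertain. The constitutive chaperone gene Hspa8 was higher in Sox2-positive cells by 0.96 (SE 0.05, adjusted p 2.2e-14) over both batches and held 1812 ± 119 and 1647 ± 70.2 CPM in the Sox2-positive libraries of A and B (-0.14, SE 0.06, adjusted p 0.197). Hspb1, a small heat shock gene, and Mt2, a metallothionein gene, were higher in Sox2-positive cells by 3.26 (SE 0.24, adjusted p 6.51e-12) and 3.06 (SE 0.33, adjusted p 1.06e-08). Between batches in Sox2-positive cells their adjusted p was 0.181 and 0.585. Over both batches 9 of the 15 heat shock and metallothionein genes were higher in Sox2-positive cells and 3 lower, among them Hsp90aa1 (-0.53, SE 0.09, adjusted p 1.13e-05) and Hspe1 (-0.33, SE 0.08, adjusted p 0.00129); with no filter on low counts 1 was lower.

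Of 9 tested AP-1 partners and competitors, 1 rose and 0 fell between batches in Sox2-positive cells, and 0 passed in Sox2-negative cells, counts that were the same by DESeq2 and at an unadjusted p under 0.05. That gene was Fosl2, a FOS relative with a more stable product, which went from 21.3 ± 5.18 to 46.8 ± 5.98 CPM (log2 1.14, SE 0.19, edgeR adjusted p 0.000162). It was lower in Sox2-positive than in Sox2-negative cells of both batches (-1.36, SE 0.17, edgeR adjusted p 1.53e-07). Batf3 and Jdp2, dimer partners known from leukocytes and osteoclasts, were also lower in Sox2-positive cells (log2 -4.51, SE 0.64, adjusted p 1.08e-06, and -3.93, SE 0.66, adjusted p 1.37e-05). Mafg, a small MAF subunit, was the most abundant of the list beside Fosl2, at 80.3 to 119 CPM on group average.

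**Figure D5:**
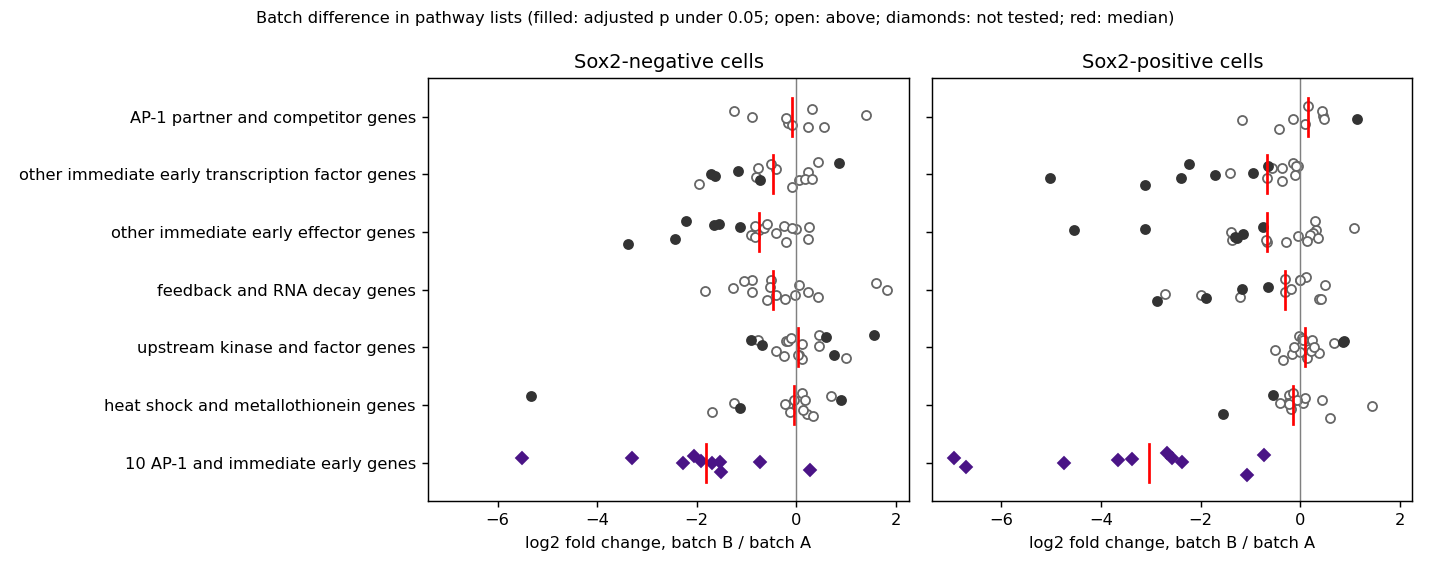
Log2 fold change of batch B over batch A (horizontal axis) for the genes of 6 pathway lists and for the 10 genes (diamonds, not tested), in Sox2-negative (left) and Sox2-positive cells (right); filled circles passed the test, open circles did not, and red lines are medians. The medians of the lists lie between -0.75 and 0.16, those of the 10 genes at -1.81 and -3.03. List genes at 0 in every library of 1 of the compared groups are not drawn at their fitted values. These points (Arc and Egr4 on the left, Klf2 and Egr4 on the right) are drawn with that group set at the floor of 3 counts per library.

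Within a group, the 10 genes moved together only in part. After the group mean was removed, the median Pearson r over the 45 pairs of the 10 genes was 0.200 across 23 libraries, 39 pairs were positive, and the values ran from -0.25 (Junb and Dusp1) to 0.72 (Jun and Ier2). Without the batch B libraries numbered 1 and 2 the median was 0.105 over 19 libraries. Against the mean of the other 9 genes, Ier2 had the highest r, 0.70, and Fos the lowest, 0.13. Without those libraries Ier2 was again the highest, at 0.64, but Egr1 the lowest, at -0.15, and Fos was at 0.11. All genes of a library share its total count and its mitochondrially encoded share. The mean of the 10 genes had r = -0.34 with the log2 total count and r = -0.49 with the mitochondrially encoded share, and -0.11 and -0.28 without those libraries. RNA quality was not assessed. Outside the list, the 5 genes whose deviations were most like that mean, of 8728 genes with at least 10 CPM on average in every group, were Sphk2 (r = 0.78), Prpf6 (0.75), Zfyve27 (0.74), Smn1 (0.73) and Aars (0.72). Without the batch B libraries numbered 1 and 2 the 5 were Tiprl (0.84), Fjx1 (0.83), Thoc1 (0.80), Dnttip1 (0.80) and Chtf18 (0.79), so the likeness rests on which libraries are used. These correlations are descriptions across libraries and carry no test.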

How the data were processed

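Expression was measured by RNA-seq in 23 libraries. The authors deposited expected counts, estimated per gene and not scaled to depth; per the submitters' processing notes, FastQC, Trimmomatic, Salmon and mm10 were used, with no versions. All columns were used (0 left out). Values were rounded to whole numbers. Symbols and exon lengths came from GENCODE M21 (GRCm38), matching 54094 of 54347 identifiers without version, and start-site sequences from RefSeq (GRCm38.p6).

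Differences were fitted with edgeR 4.0.16 in R 4.3.3 (TMM scaling, filterByExpr with a minimum count of 10, quasi-likelihood F test, Benjamini-Hochberg adjusted p under 0.05 over all genes tested). Population differences had batch as a covariate over 23 libraries or were fitted in each batch alone; batch differences came from a model of the 4 group means. The SE is the log2 fold change divided by the square root of F. The fits were tested on simulated counts. Correlations used log2 CPM with a prior count of 2. A floor of 3 counts per library gave lower bounds and covers counting error only.

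The 10 genes, the lists and the markers were chosen with earlier results of these data known. Named list genes were the 2 highest in mean CPM, the 2 highest and 2 lowest population differences among those called, and the 2 smallest adjusted p in the interaction; others are said to be chosen after their values were seen. One gene that this rule names is not reported here. Alternatives were DESeq2 1.42.0, RLE size factors, total-count scaling, no filter, a replicate block, leaving out each library, and leaving out the batch B libraries numbered 1 and 2. Sequence from Egr1 and Ier2 was not analysed here.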

Additional observations from a re-analysis of the deposited data

Results flagged for a closer look

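Among 40 groups of libraries, 1 for each of the 10 genes in each of the 4 groups, 3 held a library flagged as far from the others. These were the highest Fosb value in batch B Sox2-negative libraries, 1.95 CPM among 4 libraries, and in batch B Sox2-positive libraries, 0.432 CPM among 7, and the lowest Junb value in batch B Sox2-negative libraries, 24.0 CPM among 4. For normally spread values chance flags about 1 in 20 groups. That rate does not hold for Fosb in batch B, where most libraries had 0 or 1 count, and its flagged Sox2-positive value is 1 count.

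The population difference of Fos was opposite in the batches with no overlap in either, and batch B minus batch A was -3.66 on the log2 scale; the difference was not tested, since Fos was listed with this pattern known. For 18 of the 93 tested genes of the pathway lists the interaction of population and batch passed the test (edgeR adjusted p). It was negative, so that Sox2-positive cells stood lower relative to Sox2-negative cells in batch B, for Klf2 (-6.34, adjusted p 1.78e-05, a fitted value with Klf2 at 0 in batch B Sox2-positive libraries and so no bound), Klf4 (-1.81, adjusted p 0.000337), Ccn1 (-3.43, adjusted p 2.39e-05), Spry4 (-2.33, adjusted p 0.00182), Socs3 (-1.98, adjusted p 0.00386), Hspd1 (-0.88, adjusted p 0.00198), Nr4a1 (-1.50, adjusted p 0.00341), Rhob (-0.90, adjusted p 0.0439) and Bag3 (-0.97, adjusted p 0.0343). It was positive for Sat1 (1.69, adjusted p 9.01e-07), Elk3 (1.07, adjusted p 0.015), Mrtfb (1.12, adjusted p 0.0175), Hspa1b (6.77, adjusted p 0.00671), Klf10 (1.01, adjusted p 0.037), Gadd45g (1.48, adjusted p 0.00555), Plk2 (2.15, adjusted p 0.0017), Nfkbia (0.93, adjusted p 0.0231) and Mt1 (0.91, adjusted p 0.00758). Nr4a1, Rhob, Bag3, Klf10, Gadd45g, Plk2, Nfkbia and Mt1 were named after their values were seen. Hspa1b has a near-identical copy, Hspa1a, and its mean was at most 2.34 CPM in any group, so its value is uncertain. Without the batch B libraries numbered 1 and 2 only Klf2, Klf4, Ccn1, Socs3, Sat1, Elk3 and Plk2 were called, and the other 11 kept their direction, with -2.03 for Spry4, 0.97 for Mrtfb, -0.66 for Hspd1, 6.87 for Hspa1b, -1.39 for Nr4a1, -0.74 for Rhob, -0.71 for Bag3, 1.15 for Klf10, 1.16 for Gadd45g, 0.62 for Nfkbia and 0.90 for Mt1. With the replicate block 6 calls ended, those of Mrtfb (1.12), Klf10 (0.80), Gadd45g (1.38), Rhob (-1.11), Nfkbia (0.99) and Bag3 (-1.08), and 12 held.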

How the results depend on the processing

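No result changed direction among called values. Log2 differences of the 10 genes kept within the spread between libraries in 1449 of 1463 refits, and 14 moved further. Genes called for the interaction numbered 1210, against 557 with a replicate block and 481 without the batch B libraries numbered 1 and 2. Genes called between batches in Sox2-negative cells numbered 1924, against 2887 by DESeq2 and 754 without those libraries, and in Sox2-positive cells 1785, against 1159 without them. Of the pathway lists, 7 in place of 18 genes were called for the interaction without those libraries, and 7 in place of 19 between batches in Sox2-negative cells; the median r within groups was 0.105. These leave fewer libraries. Leaving out 1 library gave 9621 to 10091 calls over both batches, 5805 to 6300 in batch A, 8005 to 8794 in batch B, 938 to 1254 for the interaction, and 1331 to 1989 and 1497 to 1892 between batches in Sox2-negative and Sox2-positive cells. For the lists the ranges were 60 to 65, 48 to 53, 59 to 62, 13 to 19, 14 to 23 and 19 to 23. Same-numbered libraries did not pair (r -0.021 to 0.044 between their deviations). The replicate block moved Jund in batch B to -1.09 and Ier2 to -0.05. Batch B Sox2-positive libraries numbered 5, 6 and 7 have no Sox2-negative library of their number, so they add nothing to the differences fitted with the block. Its shifts can therefore come from fewer libraries as well as from pairing. Only population comparisons and the interaction were refitted with the block, since batches share no mice. Named list genes lost their call in 178 and gained it in 88 of 5953 refits. Fosb and Atf3 had libraries at 0 counts, some of them among batch B Sox2-negative libraries, where totals were at least 6397409. The part of depth in this was not tested.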
